A study of Mus musculus with 14 samples.

Results

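The genes for the proteins of the cytosolic ribosome were examined for the placement of H3K4me1 sites around their transcriptional start sites (TSSs). They were taken from the GENCODE release M21 annotation of the mouse genome build mm10 as the protein-coding genes whose symbol is Rpl or Rps plus a number, with an optional suffix a, l, x or p, together with Rplp0, Rplp1, Rplp2 and Rpsa. Kinases of the S6 protein, Rps19bp1 and pseudogenes were left out. This gave 80 of 21938 protein-coding genes on chromosomes 1 to 19, X and Y, of which 49 encode proteins of the large subunit and 31 proteins of the small subunit.

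The cells were iMEF cells, immortalized mouse embryo fibroblasts with Ash2l alleles from which exon 4 can be deleted, of the single clone NG3. In this clone the endogenous alleles are deleted and growth depends on a human ASH2L fusion, introduced with a lentiviral construct, that carries an N-terminal FKBP12F36V tag. ASH2L is a core subunit of the KMT2 complexes that methylate histone H3 at lysine 4. The tag makes the fusion sensitive to the PROTAC dTAG-13, and the control cells carried the same deletion and the same fusion but received no dTAG. H3K4me1 was measured by ChIP-seq in the control and after 0.5, 2, 4, 8 and 16 h of dTAG, with 2 replicates for each of the 6 conditions and 2 inputs, from the control and from 16 h, which are 14 libraries in all. The deposited set holds 160144 sites called over all these samples together, each with a chromosome, a start and an end. It gives no time point, replicate, read count or depth for a site, so whether a site was present before or only after the loss of ASH2L cannot be told apart, and the identity of the cells cannot be checked from it. All values below are positions, widths and counts in this pooled set, without replicates. The 95% Wilson intervals cover the counting of genes alone. Neither a change over time nor a test over genes was made, since genes are not replicates of a condition.

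Ribosomal proteins are needed in equal numbers for each ribosome, and their genes are among the most strongly and evenly transcribed in growing cells. Most have short transcripts, small first exons and an mRNA that begins with a run of pyrimidines, and introns of many host small nucleolar RNAs. H3K4me1 is found at enhancers and also at the borders of active promoters, where it flanks the stretch next to the TSS that carries H3K4me3 or little nucleosome signal.

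Nearly every ribosomal protein gene had H3K4me1 sites beside its TSS, and few had a site over it. Within 1 kb of the TSS, 77 of the 80 genes (96.2%, 95% Wilson interval 89.5 to 98.7%) had a site, against 64.3% of all protein-coding genes. In 57 of them (71.2%, 60.5 to 80.01%) the TSS itself was free of sites and lay between a site upstream and a site downstream, both within 3 kb. This arrangement was seen at 16.1% of all protein-coding genes and at 25.9% of those with a CpG island within 1 kb of the TSS. A site covered the TSS in 9 ribosomal protein genes (11.2%, 6.03 to 20.02%), against 40.1% of all protein-coding genes and 56.8% of those with an island. A further 11 genes (13.8%) had a site downstream but none upstream, against 9.05% of all genes and 9.92% of those with an island. Only Rpl39l had a flank upstream alone. Rpl10l and Rpl3l (2.50%) had no site within 3 kb, against 31.1% of all genes and 6.03% of those with an island. The large and small subunits did not stand far apart, with 35 of 49 and 22 of 31 genes having a site-free TSS between flanks.

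**Figure D1:**
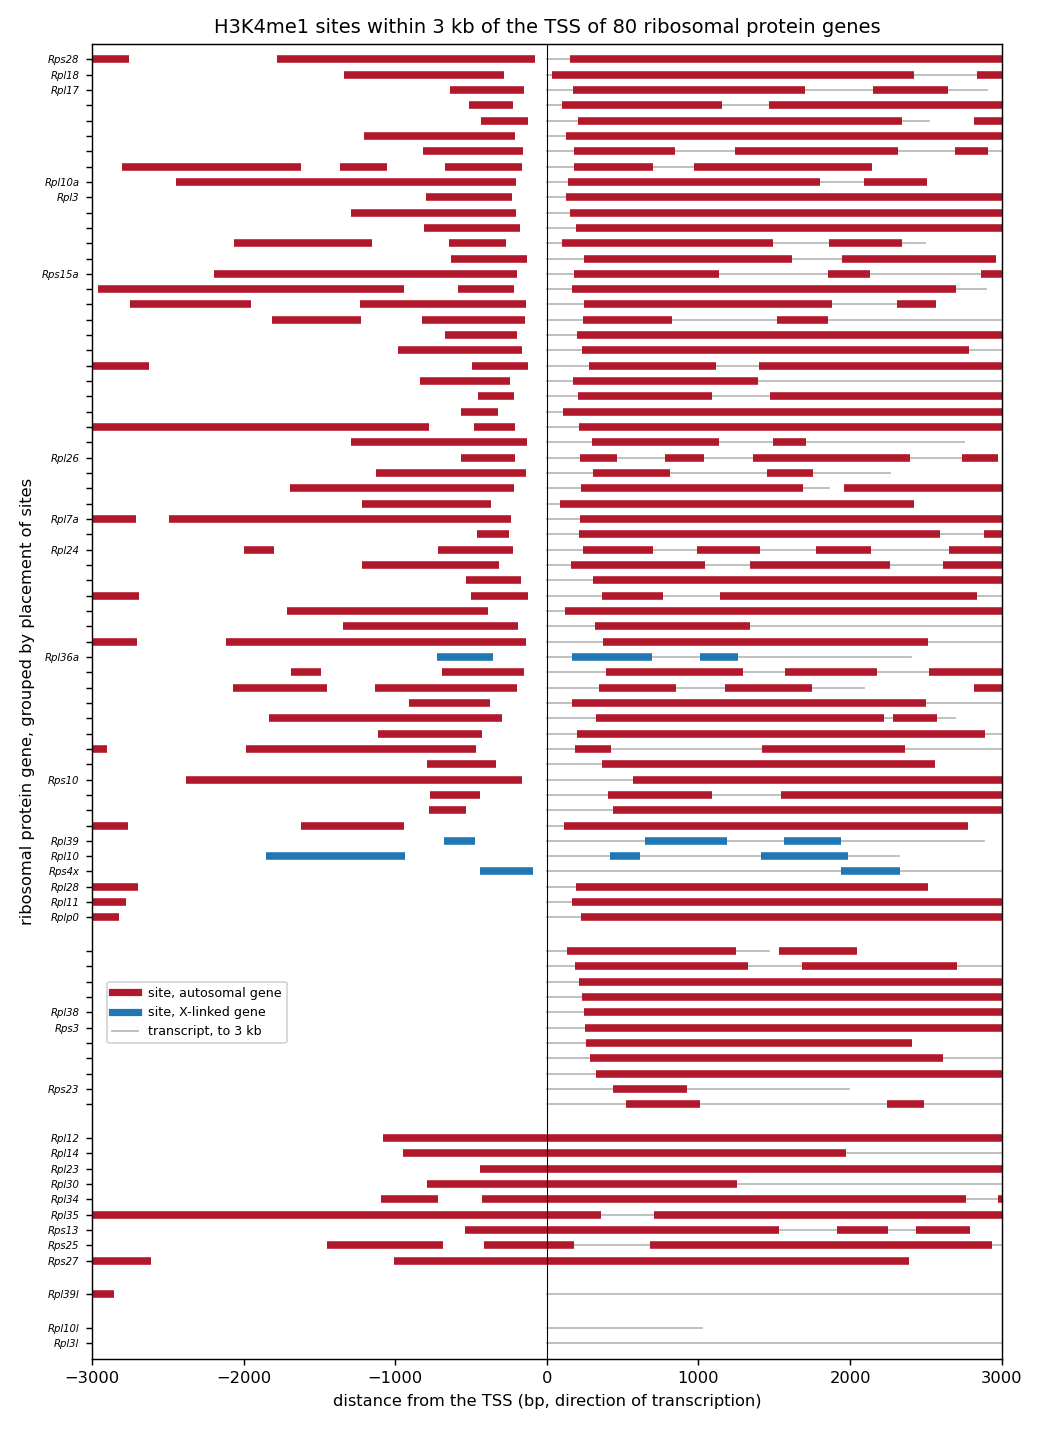
Each row is 1 of the 80 ribosomal protein genes, with the extremes, the X-linked genes and the genes with a covered or distant site labelled, and each bar an H3K4me1 site, drawn by distance from the TSS (bp) in the direction of transcription and cut at 3 kb. From top to bottom are the 57 genes with a site-free TSS between flanks, ordered by the width of the gap, the 11 with a downstream flank only, the 9 with a site over the TSS, the 1 with an upstream flank only and the 2 with no site. The white column at the TSS is the stretch that sites rarely enter.

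Other genes of protein synthesis served for comparison. Of 78 genes for mitochondrial ribosomal proteins, which belong to the separate ribosome of the mitochondrion, 43 (55.1%) had a site over the TSS and 22 (28.2%) a site-free TSS between flanks. A list of 68 genes was taken by symbol alone, Eif or Eef plus a number, and is called translation factors here. It can also hold genes that only regulate such factors. Of these 68, 20 (29.4%) had a site over the TSS and 34 (50.0%) a site-free TSS between flanks. The translation factors therefore lay between the cytosolic and the mitochondrial ribosomal protein genes in both shares. Other shares were not particular to the cytosolic genes. A site lay within 1 kb of the TSS in 97.4% of the mitochondrial list and 94.1% of the factors. A downstream flank alone was seen in 14.1 and 16.2%, and no site within 3 kb in 2.56 and 4.41%. CpG islands were frequent in all 3 lists. Among the cytosolic ribosomal protein genes 78 of 80 had one (97.5%, against 54.5% of all protein-coding genes), as did 75 of the 78 mitochondrial ribosomal protein genes and 63 of the 68 factors. The exceptions among the 80 were Rpl3l and Rpl4.

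**Figure D2:**
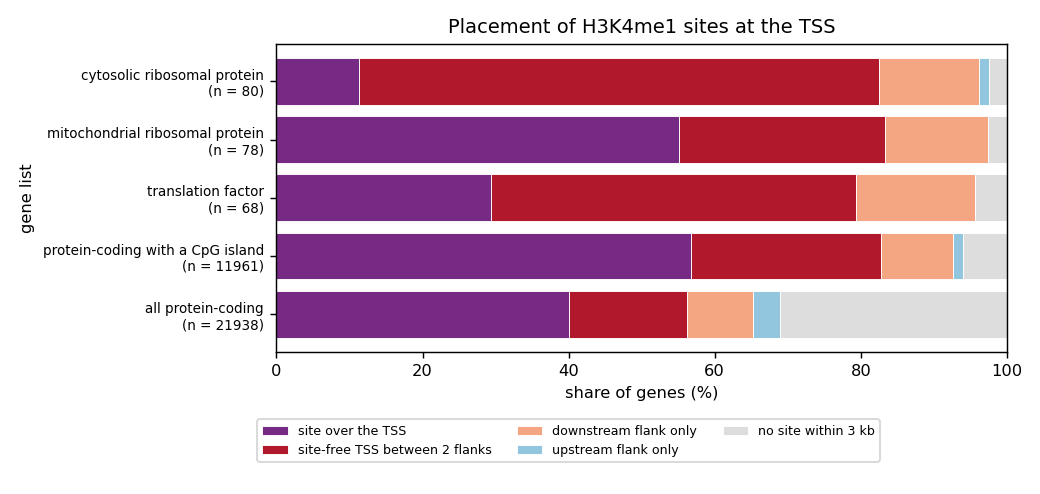
Each bar is a gene list and shows the share of its genes (%) by the placement of H3K4me1 sites at the TSS. The site-free TSS between flanks makes up 71.2% of cytosolic ribosomal protein genes and 16.1% of all protein-coding genes.

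In bins of 100 bp, the share of bases under sites in the 80 genes rose to 66.7% at 401 to 500 bp upstream of the TSS, fell to 11.7% in the bin just before the TSS and was 12.2% in the bin that begins with it. It then rose to 88.5% at 600 to 699 bp downstream. In the bin that begins with the TSS, the mitochondrial ribosomal protein genes had 65.4% of bases under sites, the translation factors 35.4% and protein-coding genes with an island 62.9%. The second difference lay further inside the genes. From 2000 to 2099 bp downstream, 75.7% of bases of the cytosolic ribosomal protein genes were still under sites, against 16.1% in the mitochondrial list, 41.2% in the factors and 30.7% in genes with an island.

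**Figure D3:**
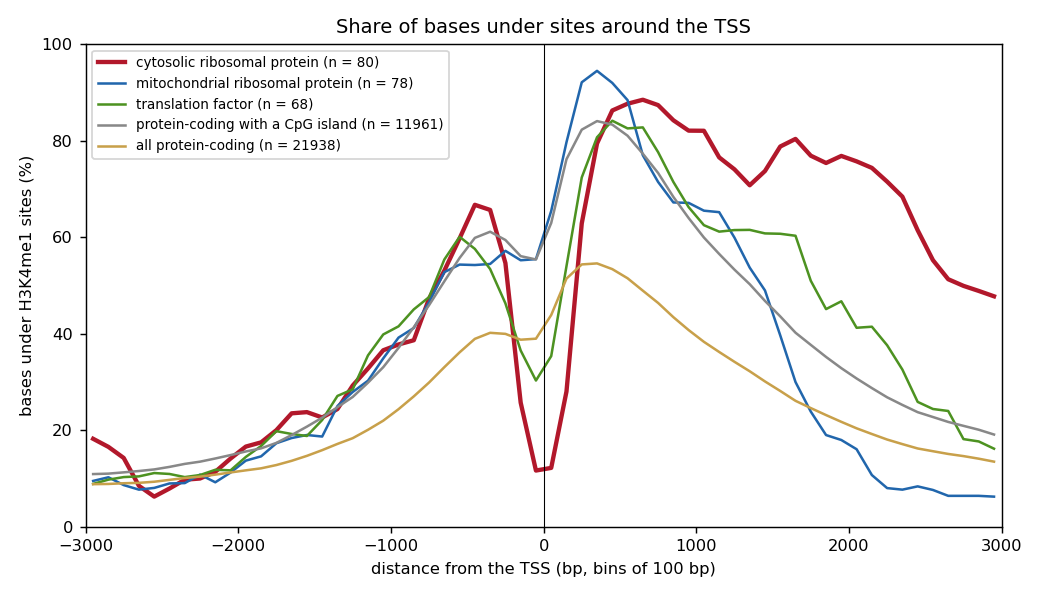
The share of bases under H3K4me1 sites (%) is plotted by distance from the TSS in bins of 100 bp for 5 gene lists. Cytosolic ribosomal protein genes fall to 11.7% beside the TSS, lower than in the 4 other lists, and remain at 75.7% at 2000 bp downstream.

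The site-free gap of the 57 genes with both flanks was narrow and of similar width in most of them. Its median was 443 bp with quartiles of 379 and 545 bp, beside 454 bp in all protein-coding genes with this arrangement, 433 bp in those with an island, 510 bp in 22 mitochondrial ribosomal protein genes and 469 bp in 34 factors. The width of the gap was thus close to that of other genes, and its position differed in value. The gap was centred on the annotated TSS, with a median midpoint of -0.5 bp (quartiles -77.0 and 47.5 bp). The median midpoint was -81.5 bp over all 3529 genes with both flanks and -53.25 bp in the factors. The quartiles of the factors, -122.9 and 56.6 bp, overlapped those of the ribosomal protein genes. Midpoints were not recomputed from other annotated starts. For the 57 genes the upstream flank ended a median of 215 bp before the TSS, against 294 bp over all genes. Their downstream flank began 205 bp after it, against 135 bp.

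The narrowest gaps were those of Rps28, a protein at the mRNA exit of the small subunit, with 229 bp, of Rpl18 with 317 bp and of Rpl17, which reaches into the exit tunnel for the nascent chain, with 323 bp. The widest were those of Rplp0, the base of the stalk that recruits elongation factors, with 3047 bp, of Rpl11, which binds the 5S rRNA together with Rpl5, with 2943 bp, and of Rpl28 with 2893 bp. In these 3 genes the downstream flank began at 223, 165 and 195 bp, near the median, and only the upstream site was far away, at 2825, 2779 and 2699 bp. Around the 3 kb limit of the rule, the furthest upstream flank inside it, at Rpl39l, ended 2855 bp from the TSS and the nearest upstream site outside it, at Rpl3l, ended 3040 bp away. The next outside it, at Rpl32, ended 5051 bp away.

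The gap was richer in GC and CpG than the flanks. In the 57 genes the median GC content was 60.1% in the gap, 49.04% in the upstream flank and 52.0% in the downstream flank, and the ratio of observed to expected CpG was 0.899, 0.437 and 0.451. The gap touched the CpG island in 56 of 56 genes with both, and a median of 80.2% of the gap lay in the island, which ran on by a median of 258 bp beyond the start of the downstream flank. These values were near those of all 3103 genes with an island and both flanks, of which 96.4% had a gap that touched the island, with a median of 86.9% of the gap in it and 318 bp beyond. The same ordering of GC content was seen in genes with an island and both flanks as a whole, with a median GC content of 63.2%, 50.3% and 54.9%.

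Short words bound by known promoter factors were counted on both strands of the 250 bases before and the first 50 bases of each transcript. The word TCTCGCGA, a palindrome core found at some promoters without a TATA box, was in 13 of 80 ribosomal protein promoters (16.2%), against 1.38% of all protein-coding promoters, 2.36% of those with an island, 2.56% of the mitochondrial ribosomal protein genes and 2.94% of the factors. The ETS word CCGGAAG was in 25 (31.2%), against 11.2% of all and 17.5% of island promoters, and it was as frequent in the mitochondrial list (37.2%) and the factors (29.4%). The other words follow with the shares of all and of island promoters in brackets. GGGCGG of the SP factors was in 51.2% (45.3 and 70.2%). GCCATNTT of YY1 was in 12.5% (6.37 and 8.19%), beside 20.5% in the mitochondrial list and 13.2% in the translation factors. CACGTG, the E box, was in 11.2% (7.72 and 10.5%). TATAAA was in 11.2% (12.6 and 6.14%) and GCGCATGC of NRF1 in 5.00% (3.74 and 5.49%). A pyrimidine run, counted as C followed by at least 4 of C or T, began at the annotated TSS itself in 8 genes (10.0%, against 2.28% of all). It began within the first 100 bases in 77 (96.2%, against 76.3% of all and 72.9% of island promoters). That was also frequent in the mitochondrial list (79.5%) and the factors (88.2%).

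All 20 matches of TCTCGCGA, in 13 genes, and all 33 matches of CCGGAAG, in 25 genes, lay outside sites. Sites covered 22.8% of the bases searched, but only 11.7 and 12.2% in the bins of 100 bp on either side of the TSS. Of the matches, 15 and 21 began no more than 60 bases before the TSS or after it. Few of them would thus be under sites in any case. The positions of the other words were not compared with sites. None of the 9 genes with a site over the TSS held either word, and among the 68 genes with a site-free TSS and a downstream flank 13 held the first and 24 the second. The NRF1 word was in 0 of the 9 and 4 of the 68, and TATAAA in 1 and 8. Other words were more frequent in the 9 than in the 68 genes, with the E box in 4 and 5, the SP word in 6 and 34 and the YY1 word in 2 and 8. The median match of TCTCGCGA lay at position -31 from the TSS, which is counted as position 0. The stretches below run from 60 bases before the TSS to 20 bases into the transcript in the mm10 build, read 5′ to 3′ along the gene. They are shown for 7 genes in which the word falls in that stretch, and capitals mark every match of the 7 words above on either strand. A match is a description of the letters and not a measured binding site. Runs such as TCTCGCGAGA hold the word on both strands in overlapping copies.
Rps28, chr17:33824543-33824622, minus strand: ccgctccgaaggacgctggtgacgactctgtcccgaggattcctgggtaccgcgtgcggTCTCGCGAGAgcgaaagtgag
Rps6, chr4:86857393-86857472, minus strand: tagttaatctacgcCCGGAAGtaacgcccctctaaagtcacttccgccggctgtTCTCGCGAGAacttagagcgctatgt
Rpl7a, chr2:26910704-26910783, plus strand: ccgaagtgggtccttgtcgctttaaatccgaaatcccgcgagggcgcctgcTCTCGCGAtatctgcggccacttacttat
Rps15a, chr7:118116169-118116248, minus strand: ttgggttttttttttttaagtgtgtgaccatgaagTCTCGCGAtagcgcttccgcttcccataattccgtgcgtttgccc
Rpl23a, chr11:78183565-78183644, minus strand: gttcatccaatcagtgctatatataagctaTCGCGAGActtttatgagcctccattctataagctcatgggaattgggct
Rpl10a, chr17:28328508-28328587, plus strand: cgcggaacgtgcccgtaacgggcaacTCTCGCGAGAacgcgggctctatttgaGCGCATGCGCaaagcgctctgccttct
Rpl26, chr11:68901523-68901602, plus strand: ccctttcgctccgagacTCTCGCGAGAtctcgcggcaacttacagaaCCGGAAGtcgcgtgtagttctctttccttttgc

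A second word stood beside it in 3 of these 7 genes, the NRF1 word in Rpl10a and the ETS word in Rpl26 and Rps6. Rps28, with the narrowest gap, and Rps6, with a gap near the median, had the word across the TSS itself. The same stretch is given next for 2 genes with a site over the TSS, Rpl12 and Rps27, for Rplp0 with the widest gap, and for Rps4x with the widest gap on the X chromosome. The first 3 held none of the 7 words in these 80 bases and Rps4x held the SP word in 2 places. Rpl12 and Rps27 do not stand for all 9 genes with a covered TSS, since Rpl23, Rpl30, Rpl34, Rps13 and Rps25 held at least 1 of the words in the same stretch.
Rpl12, chr2:32961499-32961578, plus strand: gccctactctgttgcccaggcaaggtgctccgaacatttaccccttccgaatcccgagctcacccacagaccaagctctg
Rps27, chr3:90213632-90213711, minus strand: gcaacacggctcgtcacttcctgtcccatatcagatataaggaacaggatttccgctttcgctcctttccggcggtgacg
Rplp0, chr5:115559407-115559486, plus strand: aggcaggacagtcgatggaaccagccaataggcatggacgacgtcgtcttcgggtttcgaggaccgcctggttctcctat
Rps4x, chrX:102189375-102189454, minus strand: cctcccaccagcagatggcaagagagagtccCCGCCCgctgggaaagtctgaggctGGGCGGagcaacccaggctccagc

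The downstream flank began inside intron 1 in most ribosomal protein genes. Of the 68 genes with a site-free TSS and a downstream flank, 56 (82.4%) had its first base in intron 1, 6 in exon 1, 2 in exon 2, 3 in intron 2 and 1, Rps4x, in intron 3. Over all protein-coding genes of this kind the flank began in exon 1 in 65.5% and in intron 1 in 27.7%, and in genes with an island in 74.8% and 23.1%. Exon 1 of the 80 genes had a median length of 94.5 bp, against 170 bp in the mitochondrial list and 242 bp in genes with an island, and the first exon ended before the flank in 62 of the 68 genes. The start codon lay before the flank in 39 of the 68 genes (57.4%), against 34.7% of all protein-coding genes of this kind and 60.6% of the 33 in the mitochondrial list, so that this share was not particular to the cytosolic genes. The 6 genes with a flank that began in exon 1 were Rpl18, Rpl21, Rplp1, Rps20, Rps26 and Rps29.

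**Figure D4:**
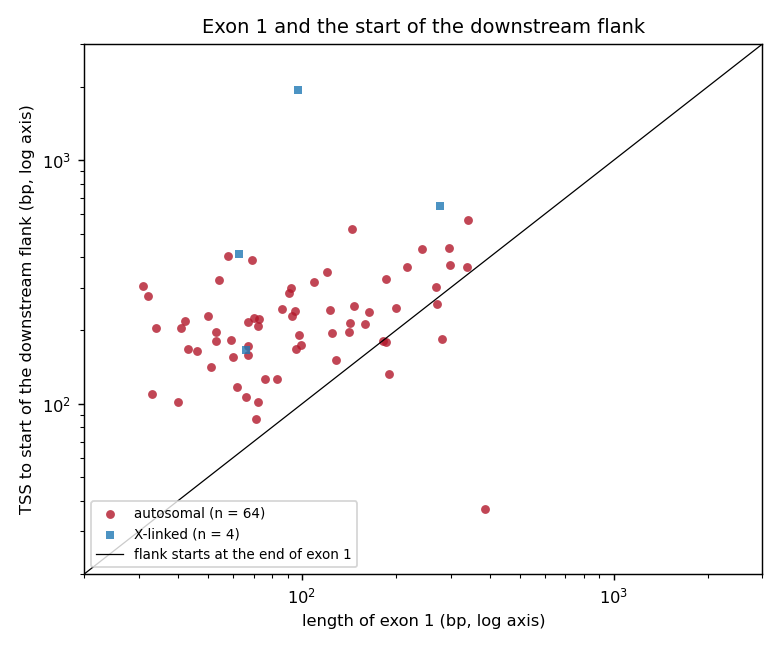
The distance from the TSS to the start of the downstream H3K4me1 flank (bp) is plotted against the length of exon 1 (bp), both on log axes, for the 68 ribosomal protein genes with such a flank. Points above the line have a flank that begins after exon 1, and 62 of 68 genes lie there.

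The downstream flank was wide and the upstream flank was not. In the 57 genes with both, the median width was 1661 bp downstream (quartiles 839 and 2903 bp) and 594 bp upstream (374 and 1087 bp), against 1158 and 667 bp over all genes with both flanks. With the 11 genes that had a downstream flank alone, the median downstream width was 2020.5 bp over 68 genes, against 1038 bp over all 5514 genes with such a flank, 704 bp over 33 mitochondrial ribosomal protein genes and 1219 bp over 45 factors. The downstream or covering site was at least 2 kb wide in 42 of 80 genes (52.5%), against 22.1% of all protein-coding genes and 34.8% of those with an island. At least 4 kb were reached by 7 genes (8.75%), against 4.93% and 7.35%. In genes with an island and a transcript of 1 to 6 kb, a group chosen after the values were seen, the shares were 38.1% at 2 kb and 8.86% at 4 kb. Sites of 4 kb or more were thus about as frequent there as in the ribosomal protein genes. The widest downstream flank of the 80 genes was at Rpl3, which lies near the peptidyl transferase centre, with 8299 bp (chr15:80074982-80083280). Rpl38, which is needed for the translation of homeobox mRNAs in the mouse embryo, followed with 6063 bp (chr11:114668770-114674832) and Rps3, a protein of the mRNA entry site, with 5425 bp (chr7:99478063-99483487). The widest upstream flanks were those of Rpl7a with 2255 bp, Rpl10a with 2240 bp and Rps10 with 2219 bp. Rpl7a and Rps10 each had the TSS of another protein-coding entry of the annotation within 1 kb, Med22 and RPS10-NUDT3. The second entry bears the name of Rps10 itself and need not be a separate promoter. With Rps10 counted, 11 of the 80 genes (13.8%) had another such TSS within 1 kb, against 10.7% of all protein-coding genes and 17.1% of those with an island.

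The transcripts of ribosomal protein genes were covered by sites over most of their length. The median share of the transcript under sites was 75.1% (quartiles 58.6 and 88.2%), against 6.30% over all protein-coding genes, 12.05% in genes with an island, 19.5% in the mitochondrial list and 15.1% in the factors. At least 50% was covered in 63 of 80 genes (78.8%), against 6.79% of all. Transcript length moved with this share, and the median transcript was 3208 bp in the 80 genes and 15776 bp over all. In the 1862 protein-coding genes with an island and a transcript of 1 to 6 kb, a group chosen after the values were seen, the median transcript was 3560 bp and the median share 42.2%. That share was above the genome-wide value and below that of the ribosomal protein genes. In 20 of 77 genes (25.97%) the downstream or covering site ran on past the end of the transcript, by up to 2809 bp at Rpl3 and by a median of 1302.5 bp. This was seen at 3.07% of all protein-coding genes with such a site and at 11.3% of those with an island and a transcript of 1 to 6 kb. Rpl12 and Rps27 were covered from end to end, and Rpl3 to 97.8%. Rps15a had the most sites over its transcript, 6 over 11817 bp, followed by Rpl24 with 5 and Rpl26 with 4.

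**Figure D5:**
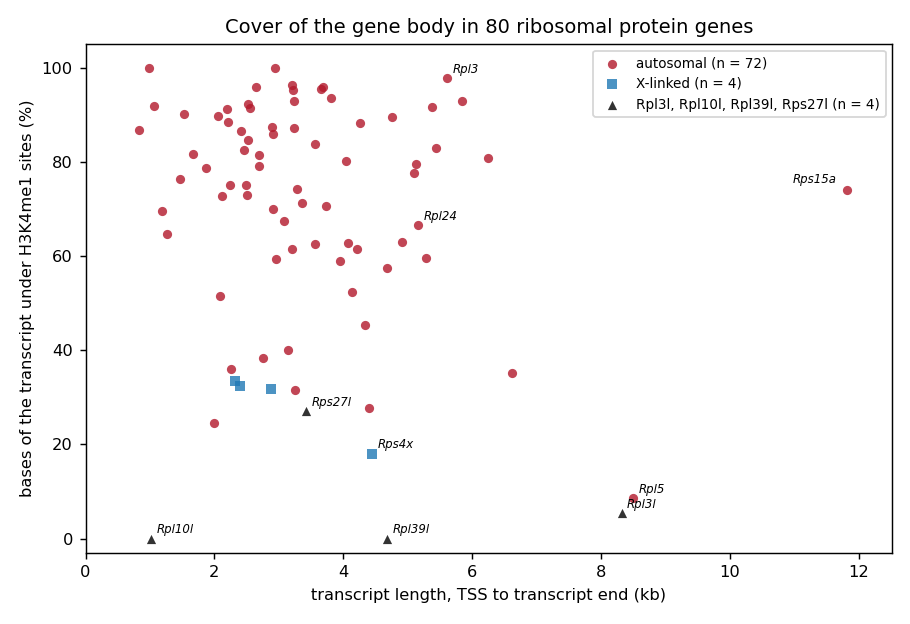
The share of the transcript under H3K4me1 sites (%) is plotted against transcript length (kb) for the 80 ribosomal protein genes. Most autosomal genes lie above 50%, the 4 X-linked genes between 18.01 and 33.4%, and 3 of the 4 tissue-restricted or induced copies at or under 5.38%.

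The proteins of the stalk and its base differed among themselves. Rplp0 had the widest gap and a downstream flank of 3755 bp. Rplp1 and Rplp2, the 2 acidic proteins that bind to it, had gaps of 343 and 486 bp and downstream flanks of 525 and 406 bp, which were followed by further sites, so that 64.7 and 61.5% of their transcripts were covered. Rpl12, beside the stalk, had a site of 4982 bp that ran over its TSS and over that of Lrsam1. The sequence around the TSS of Rplp1 was in part repeated in the genome, with 85.9% of the words of 75 bases within 200 bp of the TSS found once. Of these 4 genes, 3 had a site-free TSS between flanks and 1 had a site over the TSS.

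The genes for proteins close to the peptidyl transferase centre, Rpl3, Rpl8 and Rpl10, had gaps of 353, 400 and 1351 bp. Of the proteins that line or surround the exit tunnel, Rpl4, Rpl17, Rpl19, Rpl23a, Rpl26, Rpl31 and Rpl39 had a site-free TSS between flanks, and Rpl35 had a site over the TSS. The downstream flanks of these genes varied widely in width. That of Rpl4 measured 238 bp and that of Rpl26 246 bp, both followed by other sites, and that of Rpl23a measured 4583 bp. Rpl5 and Rpl11, partners in the particle with the 5S rRNA that also restrains MDM2, differed too. Rpl11 had 95.5% of its transcript under sites, and Rpl5 had a flank of 488 bp, none upstream within 3 kb, and 8.61% of its 8504 bp transcript under sites, the lowest share of the autosomal genes other than the copies.

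In the small subunit, the proteins of the mRNA entry site were encoded by Rps2 and Rps9, with gaps of 443 and 324 bp, and by Rps3, which had no upstream flank. Of those at the mRNA exit, Rps28 had both flanks and Rps14 and Rps26 only the downstream one, of 2332 and 2155 bp. Rps23, next to the decoding centre, had a downstream flank of 489 bp and 24.5% of its transcript under sites. Rps6, the substrate of S6 kinases, had a gap of 427 bp and a share of 38.4%. Rps27a, which is made as a fusion with ubiquitin, had a gap of 437 bp and a share of 36.0%. Rps19, often mutated in Diamond-Blackfan anaemia, had a gap of 970 bp and a share of 82.8%.

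Among the 11 genes with a downstream flank only, the next upstream site was 851137 bp away at Rpl38, 26508 bp at Rps23 and 26272 bp at Rps3. The other 8 had it at 5051 to 15119 bp. The downstream flanks of the 11 genes measured 488 to 6063 bp and began 133 to 522 bp from the TSS, within the range of the 57 genes with both flanks.

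In the 9 genes with a site over the TSS, the site was 595 bp wide at Rps25 and 5221 bp at Rpl35, with a median of 3188 bp. The site of Rps25 ran from position -417 to 177 bp around the TSS and that of Rpl35 from -4864 to 356 bp, and in both a second site followed inside the transcript. In the other 7, Rpl12, Rpl14, Rpl23, Rpl30, Rpl34, Rps13 and Rps27, the site began no further upstream than -1078 bp and reached 1254 to 3903 bp downstream. In each of these 7 the larger part of the site lay downstream of the TSS. This call depends on which start is taken. The 80 genes have 466 annotated TSSs, of which 294 (63.1%) lay outside sites, and 76 of the genes had at least 1 outside. Of the 9 genes, Rpl35 and Rps25 had another annotated TSS outside sites at 502 and 521 bp downstream, and Rpl14, Rpl23 and Rpl30 further away, at 1975 to 3802 bp. Every annotated TSS was under a site only in Rpl12, Rpl34, Rps13 and Rps27. With the RefSeq gene start, 13.8% of the genes had a site over the TSS, and with the most upstream start of any transcript 16.2%, against 38.3 and 39.5% of all protein-coding genes.

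The 4 X-linked genes differed in value from the others. Rpl10, Rpl36a, Rpl39 and Rps4x all had a site-free TSS between flanks, but their gaps measured 1351, 520, 1121 and 2030 bp, against an autosomal median of 430 bp. Their downstream flanks measured 200, 526, 541 and 391 bp, against an autosomal median of 2138 bp in genes with both flanks. The shares of their transcripts under sites were 33.4, 32.5, 31.8 and 18.01%. Of the 72 autosomal genes other than the copies, 4 had a share at or under the highest of these, among them Rpl5, Rpl15 and Rps23, and 9 of 63 had a downstream flank no wider than that of Rpl39, so that the ranges overlapped. The chromosome as a whole went the same way. Among all genes with an island, the 330 on the X had a site over the TSS in 16.97%, a median downstream flank of 664 bp and a median share of 3.62%, against 57.9%, 1223 bp and 12.4% for 11630 autosomal genes. The part of the chromosome in these values was not tested.

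Of the 4 copies known for restricted or induced expression, Rpl10l, Rpl3l and Rpl39l stood apart from the main set. Rpl10l, expressed in testis, had no site within 3 kb and none over its transcript. Rpl3l, expressed in heart and skeletal muscle, had its nearest sites 3040 bp upstream and 7876 bp downstream of the TSS and 5.38% of its transcript under 1 site further downstream. Rpl39l, also known from male germ cells, had a site of 219 bp that ended 2855 bp upstream and none over the transcript. Rps27l, which is induced by p53, had both flanks, a gap of 386 bp, a downstream flank of 585 bp and a share of 27.1%. All words of 75 bases within 200 bp of the TSS were found once in the genome in each of these 4 genes.

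Ribosomal protein genes have many processed copies in the genome, so the sequence was checked for stretches where a read has no single place. Words of 75 bases, the number of sequencing cycles, were found once in 94.6% of positions under sites in the transcripts and in 94.6% of positions outside sites. Within 200 bp of the TSS a mean of 99.3% of words were found once, against 98.8% in genes with an island. The lowest values there were 83.5% at Rps29, 85.9% at Rplp1 and 91.4% at Rpl37a. In the X-linked genes, 93.7% of positions under sites and 91.9% outside were found once.

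In the windows of 3 kb around the 80 TSSs lay 201 distinct sites with a median width of 925 bp, against 603 bp over all sites. The upstream flank overlapped another protein-coding gene in 14 of 58 genes and held its TSS in 2, Tmem238 at Rpl28 and Rdh10 at Rpl7. The downstream or covering site overlapped another protein-coding gene in 18 of 77 genes and held its TSS in 4, Lrsam1 at Rpl12, Arpc5l at Rpl35, Zc3h10 at Rpl41 and B3galt4 at Rps18. The 18 include Rps10, where the other gene was RPS10-NUDT3. These overlaps were not counted over other genes, so whether they are usual for protein-coding genes is not known.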

How the data were processed

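Reads of the H3K4me1 and input libraries were trimmed with Trim Galore, aligned to mm10 with BWA, filtered with samtools and merged with Picard MergeSamFiles by the authors, who called broad peaks with Macs. Versions and thresholds are not given in the sources used here. The deposited table, made by the authors, gives for every site a chromosome and 2 positions in bases, with all samples pooled. Starts count from 0 in the table and from 1 here. No column names a sample, and the planned count test of sites by time point was not run because the table holds no counts, so depth is unknown.

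Distances were taken from 1 TSS per gene of GENCODE M21, while the study used another release. CpG islands were found as runs scoring 17 for CpG and -1 for other dinucleotides, longer than 200 bp, with a GC content of at least 50% and an observed to expected ratio above 0.6, which gave 16203 islands. Genes were named if they were extremes of a measure, lacked a site, had a covered TSS, or belonged to the stalk, the X chromosome or the copies. Other genes were named for their role in the ribosome, after their values were seen. The members and lists were chosen with earlier results of these data known. Python 3.11.15, numpy 2.4.6, pandas 2.3.3, scipy 1.17.1, numba 0.67.0 and matplotlib 3.10.9 were used. The measures were checked on genes and sites with known answers. Results on some single genes are not reported here.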

Additional observations from a re-analysis of the deposited data

How the results depend on the processing

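Of 133 values of 12 results recomputed under alternatives, 120 of them planned and 13 chosen after seeing the data, 128 were within 1.5 times the reported value. Merging sites within 1 kb of each other put a site over the TSS in 59 genes and left 7 with a site-free TSS between flanks, since it closed every gap under 1 kb. The median gap of those 7 was 2030 bp and the median distance to the upstream flank 939 bp. After this merging 73.8% of the genes had a covered TSS, against 53.6% of all protein-coding genes and 79.99% of those with an island, so that the low share of covered TSSs depends on counting gaps under 1 kb. With sites of at least 500 bp alone, the median upstream flank was 1028 bp. The genes with a site-free TSS between flanks then fell from 57 to 40 (50.0%), against 10.7% of all protein-coding genes and 17.8% of those with an island. No paired analysis was possible because the pooled set holds no value for a replicate, and for the same reason no replicate could be left out. The number of reads behind a site is unknown, and a weak site that was not called cannot be told apart from no H3K4me1.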

Other observations

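Genes outside the rule that encode ribosomal proteins or proteins bound to the ribosome were measured in the same way. Fau, whose product carries the small subunit protein S30, had a gap of 342 bp, a downstream flank of 1638 bp and 86.6% of its transcript under sites. Rack1, a scaffold on the small subunit, had a gap of 325 bp and a downstream flank of 3814 bp. Rps3a1 had a gap of 525 bp and 35.4% under sites, and Rpl36al a gap of 297 bp and 73.0%. The paralogues Rpl22l1 and Rpl7l1 had both flanks, with gaps of 1217 and 304 bp and 22.5 and 22.6% under sites.

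Pseudogenes of these genes were mostly without sites. Of 294, 208 (70.7%) had none within 3 kb of the start, 14 (4.76%) had a site over the start and 18 (6.12%) a site over any base, whereas 78 of the 80 genes had a site over the transcript. A site lay over 9 of 72 pseudogenes inside protein-coding genes and over 9 of 222 outside them. Whether a read has a single place in the pseudogenes was not checked, and pseudogenes of other genes were not counted. A lack of H3K4me1 there cannot be told apart from reads without a single place. Of 6 further copies annotated as protein-coding under pseudogene symbols, none had a site within 1 kb.

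Introns of 29 of the 80 genes held 56 small nucleolar RNA genes, of which 48 lay wholly under a site and 8 were untouched. The median share of the transcript under sites was 78.8% in these hosts and 74.1% in the 51 other genes.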
